A study of Mus musculus with 6 samples.

Results

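The genes described here are 10 genes of the pathway by which cells sense oxygen through the hypoxia-inducible factors (HIF), out of 55487 genes in a table of RNA-seq counts. The cells were MIN6, a murine line that secretes insulin and is widely used to stand in for beta cells. They were taken by gene symbol: the HIF prolyl hydroxylases Egln1, Egln2 and Egln3, the HIF subunits Hif1a and Arnt, the further regulators Hif1an and Vhl, and the HIF target genes Vegfa, Bnip3 and Pdk1. All 10 were in the table, and all 10 had enough counts to be among the 21141 genes tested. The set was chosen by function but with the fold changes of the PTHrP against DsRed comparison in view, that of Egln1 among them, so differences between the groups are given for these 10 genes as a description, with no test.

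The 3 PTHrP libraries came from MIN6 cells transfected with full-length parathyroid hormone-related protein (PTHrP, gene Pthlh), and the 3 DsRed libraries from MIN6 cells that received an empty vector with the red fluorescent protein DsRed. Both groups were transiently transfected with a lipofectamine reagent once confluent, in ordinary culture medium at 37C, and RNA was taken at most 3 days later. The cells are a single line, the share of cells that took up plasmid is not given in the sources used here, and nothing in the labels says that replicates were separate cultures, so spreads and p-values may be technical. The study's title names endoplasmic reticulum stress as its subject, and the labels give no change of oxygen and no HIF treatment.

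In normal oxygen, prolyl hydroxylases (PHD1 from Egln2, PHD2 from Egln1 and PHD3 from Egln3) use oxygen and iron to hydroxylate prolines of the HIF alpha subunit. The von Hippel-Lindau protein, from Vhl, then binds the alpha subunit and directs it to the proteasome, while the asparagine hydroxylase FIH, from Hif1an, keeps its transactivation domain from binding coactivators. When oxygen falls the alpha subunit is stabilised, pairs with ARNT and activates genes of glycolysis, angiogenesis and mitochondrial turnover, and also Egln1 and Egln3 themselves. HIF1 alpha is controlled mainly as a protein, so mRNA levels do not measure its activity, and in beta cells excess HIF activity is known to impair glucose-stimulated insulin secretion.

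The libraries held 84427033 to 94613684 gene counts. Pthlh marked the groups, with 8.10, 6.50 and 8.37 CPM in the PTHrP libraries against 0, 0.0457 and 0.0874 CPM in the DsRed libraries. Beta cell markers were abundant, with a summed level of 12 genes of 53350 to 60180 CPM in PTHrP and 54700 to 66570 CPM in DsRed. The glucagon gene Gcg, a marker of alpha cells, averaged 159 CPM in PTHrP and 148 CPM in DsRed. Marker lists of other cells summed to 1.08 to 2.27 CPM in PTHrP and 1.35 to 3.37 CPM in DsRed for 5 endothelial genes, 2.06 to 2.59 CPM and 2.71 to 3.33 CPM for 5 macrophage and blood genes, 4.38 to 4.86 CPM and 4.95 to 5.39 CPM for 5 fibroblast genes, and 1.81 to 2.42 CPM and 1.56 to 2.67 CPM for 6 acinar and duct genes. PTHrP replicate 2 stood apart from the other libraries: edgeR's quasi-likelihood test called 9 of 21141 genes with all 6 libraries and 213 of 22316 without that one. Levels are read counts divided by library size after TMM scaling, given as CPM, differences are log2 fold changes of PTHrP over DsRed from a fit to all genes, with an approximate standard error (SE), and ± marks the SD with n = 3.

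Among the 10 genes, Egln1 had higher counts in PTHrP and the others differed little. The log2 fold change of Egln1 was 0.78, and 8 of the remaining 9 lay within 0.15 of 0. No member was among the genes called at an adjusted p of 0.05, a threshold passed by 0.0426% of all genes tested (edgeR; 0.0189% higher and 0.0237% lower), and DESeq2 and limma-voom called none of the 10 either. In CPM, libraries of both groups were fully separated for 2 of the 10 genes, Egln1 and Vhl, both higher in PTHrP. The same held for 16.3% of all genes tested, 8.45% with PTHrP higher and 7.88% with PTHrP lower. The median log2 fold change of the 10 was 0.10, with 7 positive and 3 negative values, against -0.007 over all genes tested. Of those 21141 genes, 10297 had a positive value. In bulk RNA, a change in the share of cells of a kind and a change of RNA per cell cannot be told apart.

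**Figure D1:**
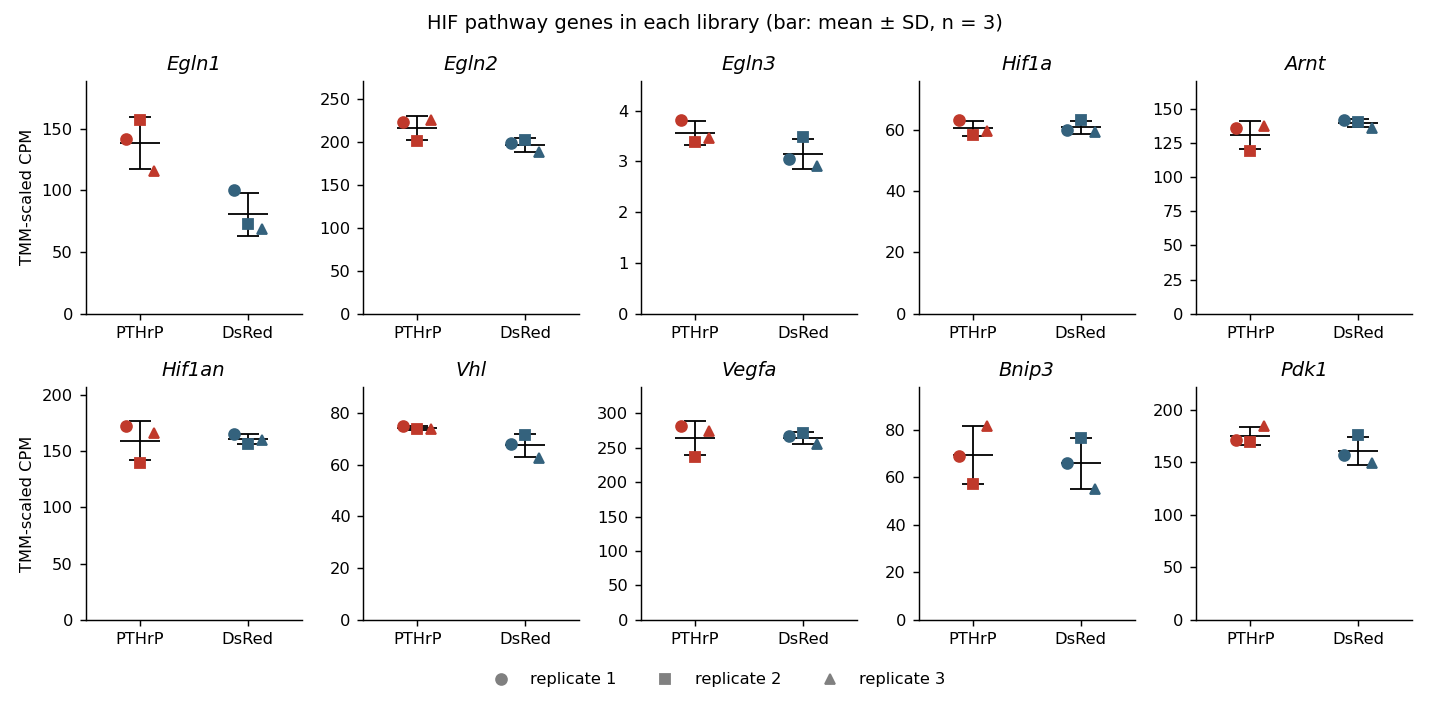
Level of each of the 10 HIF pathway genes (y axis, TMM-scaled CPM from 0) in the 3 PTHrP and 3 DsRed libraries, with symbols for the replicate number and bars for mean ± SD (n = 3). Egln1 lies at 115 to 157 CPM in PTHrP and 68.3 to 100 CPM in DsRed, while in the other panels except Vhl the groups overlap.

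Egln1 encodes PHD2, the main hydroxylase of HIF1 alpha in normal oxygen. It had 142, 157 and 115 CPM in the PTHrP libraries, against 100, 72.6 and 68.3 CPM in the DsRed libraries, from 10973 to 13366 counts in PTHrP and 6252 to 8680 counts in DsRed. Every PTHrP library was above every DsRed library, but the nearest pair, PTHrP replicate 3 and DsRed replicate 1, lay close together, and both groups were spread widely. The log2 fold change was 0.78 (SE 0.18), or 1.72-fold. It was 0.68 without PTHrP replicate 2 and ranged from 0.68 to 0.97 over the fits that left out 1 library each. Within the PTHrP group the coefficient of variation was 15.4%, and within the DsRed group it was 21.7%, the highest of the 10 genes there.

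Egln2 encodes PHD1, which is mostly nuclear. Its level was 223, 201 and 226 CPM in PTHrP, against 199, 203 and 188 CPM in DsRed, so that PTHrP replicate 2 fell among the DsRed libraries. The log2 fold change was 0.14 (SE 0.06). Egln3 encodes PHD3, which hypoxia induces strongly in many cells. It was the lowest of the 10 genes, with 329, 288 and 330 counts in PTHrP and 264, 305 and 266 counts in DsRed, or 3.82, 3.39 and 3.47 CPM in PTHrP and 3.06, 3.48 and 2.91 CPM in DsRed. The groups overlapped, and the log2 fold change was 0.18 (SE 0.16).

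Per exon length, Egln2 was the leading hydroxylase transcript and Egln3 a minor one. On the TPM scale Egln2 had 237 ± 28.2 in PTHrP and 221 ± 12.4 in DsRed, Egln1 117 ± 14.2 and 70.5 ± 16.4, and Egln3 4.10 ± 0.473 and 3.72 ± 0.391. Egln1 made up 32.8%, 37.5% and 28.1% of the 3 hydroxylase transcripts in PTHrP and 27.9%, 21.5% and 21.8% in DsRed, so the lowest PTHrP and the highest DsRed library differed by little. Egln2 exceeded Egln1 in all 6 libraries, by 1.64 to 2.52 times in PTHrP and 2.55 to 3.58 times in DsRed. Egln1 exceeded Egln3 in all 6, by 24.6 to 34.4 times in PTHrP and 15.4 to 24.4 times in DsRed. With the longest annotated transcript as the length, the share of Egln1 was 22.8% to 31.2% in PTHrP and 17.2% to 22.6% in DsRed.

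**Figure D2:**
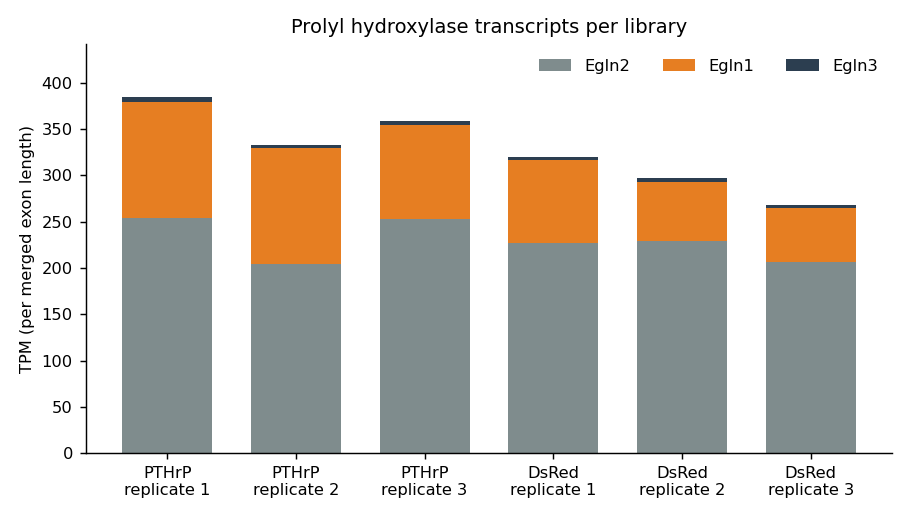
Stacked bars of Egln2, Egln1 and Egln3 levels (y axis, TPM by merged exon length, from 0) in each of the 6 libraries. Egln2 forms the largest part of every bar, Egln1 makes up 28.1% to 37.5% in PTHrP and 21.5% to 27.9% in DsRed, and Egln3 is a thin band.

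HIF binds DNA at a short core of the letters ACGTG or GCGTG, and Egln1, Egln3 and Bnip3 are known HIF targets. The 250 bases before the RefSeq start of each gene (build GRCm38.p6) were searched for these letters on both strands, with matches allowed to overlap. The stretches that hold them are shown for the hydroxylase genes and Bnip3, 5′ to 3′ on the strand of the gene, with matches in capitals:
Egln1, chr8:124949315-124949384, minus strand: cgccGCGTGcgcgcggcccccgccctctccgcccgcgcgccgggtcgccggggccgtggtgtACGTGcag
Egln2, chr7:27166828-27166957, minus strand: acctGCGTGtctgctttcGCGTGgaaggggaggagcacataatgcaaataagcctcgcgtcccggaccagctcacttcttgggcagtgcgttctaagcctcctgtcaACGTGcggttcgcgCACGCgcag
Egln3, chr12:54204065-54204123, minus strand: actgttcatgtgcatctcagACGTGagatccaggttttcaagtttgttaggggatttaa
Bnip3, chr7:138909532-138909631, minus strand: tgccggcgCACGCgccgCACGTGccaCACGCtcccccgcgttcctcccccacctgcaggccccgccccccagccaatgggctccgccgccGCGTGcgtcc

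In the whole window Egln1 held 2 matches, Egln2 4, Egln3 1 and Bnip3 5, of which 2 overlap in the palindrome CACGTG. The first listed window of 7 of the 10 genes held at least 1 match, and those of Hif1an, Vhl and Vegfa held none. A second listed window of Vegfa held 2 matches. Of all 32851 promoter windows, 38.6% held at least 1 match, 16.6% held ACGTG on either strand, and 2.58% held 4 or more matches. These windows belong to 27025 genes, some with several windows, so the shares are not those of first listed windows. The second match of Egln1, 68 bases before the RefSeq start, lies inside the transcript that GENCODE starts at 124949324. A match is a run of letters and was not measured as a site here. The windows also differed in base composition, since that of Egln1 was 86.0% GC, against 59.2% for Egln2 and 50.8% for Egln3.

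Egln1 lies on chromosome 8 at 124908587 to 124949324 (GRCm38, minus strand), with 5 exons and a single annotated transcript of 3594 bases. In GENCODE M21 no exon of another gene overlaps its exons. The annotation used for the counting is not given, so whether the same held there is not known. Of the 4 protein-coding genes on either side, the nearest, Sprtn, a DNA repair protease 2426 bases away, had 20.3, 19.1 and 21.5 CPM in PTHrP against 19.9, 20.2 and 19.7 CPM in DsRed, and its log2 fold change was 0.03 (adjusted p = 0.945, edgeR). Exoc8, a subunit of the exocyst, had 0.19 (adjusted p = 0.504, edgeR), Gnpat, an enzyme of ether lipid synthesis, 0.04 (adjusted p = 0.891), and Tsnax, the partner of translin, 0.04 (adjusted p = 0.916). The groups overlapped for each of these except Exoc8. 2810004N23Rik and Sipa1l2 had 0.13 and -0.00, Disc1 was under 1 CPM in every library, and Map10 had too few counts for a test.

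Genes with a difference as large as that of Egln1 were few at its level. Among 3457 genes within 1 log2 unit of its mean level, 90% had log2 fold changes between -0.19 and 0.18. Only 6 other genes reached 0.78, all higher in PTHrP, and no gene reached the same size in the lower direction. They were Irf2bp2 (1.99), a transcriptional corepressor, Ranbp9 (1.77), a scaffold of a ubiquitin ligase, Khdrbs3 (1.19), an RNA-binding splicing regulator, Usp7 (0.97), a deubiquitinase, Fam120a (0.93), an RNA-binding protein, and Epb41l4b (0.83), a membrane-cytoskeleton protein. None passed the test (edgeR, adjusted p from 0.259 to 0.507). These 6 genes were named after their values were seen. The difference of Egln1 was itself in view when the set was chosen, so its place among these genes is a description and no test.

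In each of these 7 genes PTHrP replicate 3 was the lowest PTHrP library, DsRed replicate 1 the highest DsRed library, and all PTHrP libraries exceeded all DsRed libraries. The 7 genes were picked for the size of their difference, so this is a description of them. Among the 3457 genes near the level of Egln1, 52, or 1.5%, had this whole pattern, these 7 included. Taken singly over 7951 genes of at least 4 log2 CPM, PTHrP replicate 3 was the lowest of its group in 26.6%. DsRed replicate 1 was the highest of its group in 35.7%. Irf2bp2, for example, had 360, 282 and 73.8 CPM in PTHrP and 63.3, 58.1 and 58.7 CPM in DsRed, so PTHrP replicate 3 lay near the DsRed libraries. The genes whose levels over the 6 libraries were most like those of Egln1, among 11800 genes of at least 1 log2 CPM, were Khdrbs3 (Pearson r = 0.995), Brd1 (0.992), a chromatin reader, AW822252 (0.989) and P3h4 (0.988), a protein of the collagen hydroxylase family. Their log2 fold changes were 1.19, 0.63, 0.55 and 0.29, and these correlations describe 6 libraries that fall into 2 groups.

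Egln1 also stood out in the GC content of its transcript start. The first 300 bases of its longest annotated transcript were 86.7% GC, the 99.97 percentile among 7945 genes of at least 4 log2 CPM. The other 9 HIF pathway genes lay between 51.3% for Vegfa and 76.0% for Pdk1. The value was 85.0% for Epb41l4b and Brd1, 82.0% for Irf2bp2 and Fam120a and 80% for Ranbp9, but 70.7% for P3h4, 67.3% for AW822252, 54.0% for Khdrbs3 and 50% for Usp7. In the promoter window, read for all of these but Khdrbs3 and P3h4, the order differed: Epb41l4b had 88.0% GC, Usp7 and Fam120a 85.2%, Ranbp9 81.2%, Irf2bp2 71.6%, Brd1 68.4% and AW822252 63.6%. Over genes with 80% GC or more at the start, 17 of 170 had a log2 fold change above 0.3, or 10.0%, and 3, or 1.76%, were below -0.3. This bound was set after the values were seen, and the 17 include genes that prompted the comparison. Without Egln1 16 of 169 were above 0.3, or 9.47%, and without any of the genes named here 11 of 164, or 6.71%. Under 80% GC the shares above 0.3 and below -0.3 were 1.22% and 1.61% of 7775 genes. By bin they were 1.44% and 1.38% at 70 to under 80% GC, 1.36% and 1.78% at 60 to under 70%, and 0.996% and 1.57% under 60%. The bin next to the bound was thus close to the lower ones. The median log2 fold change was -0.021 in the GC-rich genes and 0.001 in the others, so most GC-rich genes did not have a higher level in PTHrP. A fit that corrected for GC of the longest transcript as a whole, 56.0% for Egln1, gave Egln1 a log2 fold change of 0.74. That fit did not use the GC of the transcript start. The part of base composition in the Egln1 difference was not tested.

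**Figure D3:**
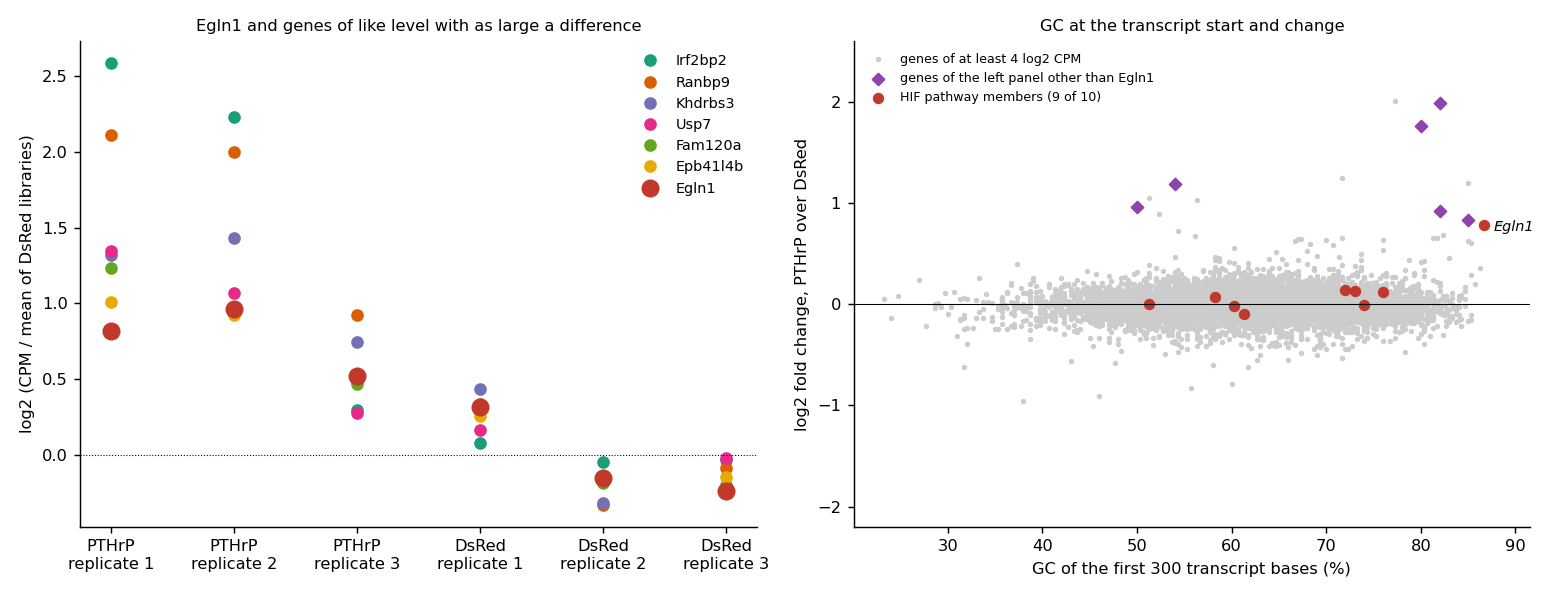
Left, log2 of CPM over the DsRed mean (y axis) in each library for Egln1 and the 6 genes of like level with a difference at least as large; in all 7, PTHrP replicate 3 is the lowest PTHrP library and DsRed replicate 1 the highest DsRed library. Right, log2 fold change (y axis, values beyond ±2.1 drawn there) against the GC percentage of the first 300 transcript bases (x axis) for genes of at least 4 log2 CPM; Egln1 lies at 86.7% GC and 0.78.

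**Figure D4:**
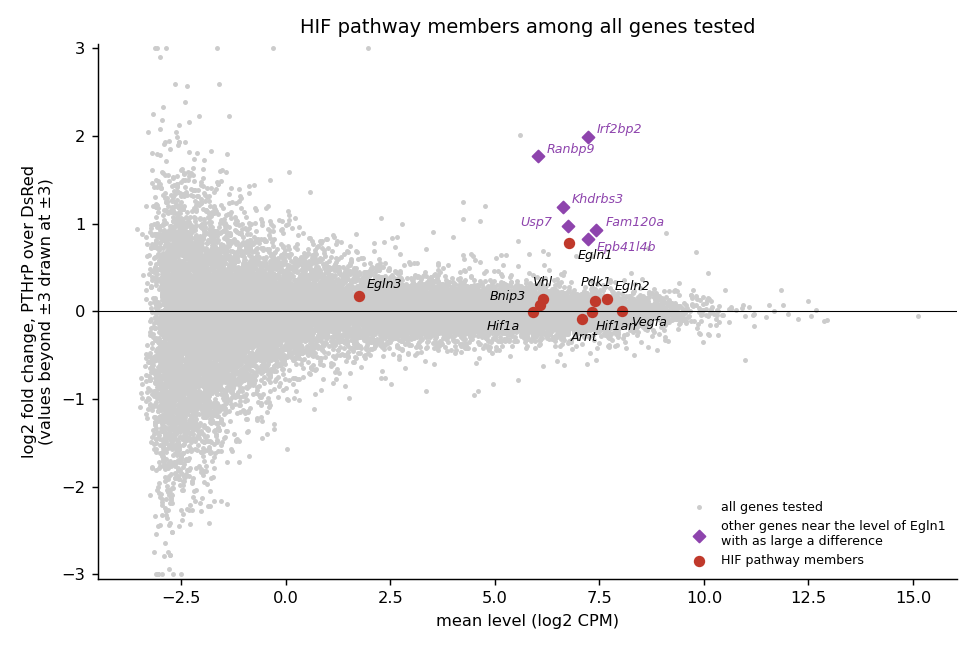
Log2 fold change of PTHrP over DsRed (y axis) against mean log2 CPM (x axis) for 21141 genes in grey, the 10 HIF pathway genes in red and the 6 further genes near the level of Egln1 in purple. Egln1 lies at 0.78 above the grey band, and the other 9 lie between -0.09 and 0.18.

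The HIF subunits did not share the pattern of Egln1. Hif1a, the oxygen-regulated subunit, had 63.4, 58.5 and 59.8 CPM in PTHrP against 59.97, 63.3 and 59.4 CPM in DsRed, with a log2 fold change of -0.01 (SE 0.07). Arnt, its constitutive partner, had 136, 119 and 138 CPM in PTHrP against 142, 140 and 136 CPM in DsRed, with a log2 fold change of -0.09 (SE 0.07). PTHrP replicate 2 was the low library for Arnt, and without it the log2 fold change was -0.02. The paralogues of the alpha subunit were near zero. Epas1, which encodes HIF2 alpha, had 0, 21 and 0 counts in PTHrP and 5, 0 and 10 counts in DsRed. Hif3a had 0, 3 and 5 counts in PTHrP and 13, 2 and 17 counts in DsRed. On the TPM scale Hif1a stood at 31.5 ± 2.99 in PTHrP and 32.4 ± 1.47 in DsRed, Arnt at 50.1 ± 6.74 and 54.7 ± 2.17, and its paralogue Arnt2 at 14.3 in PTHrP and 14.4 in DsRed.

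The further regulators were also close between the groups. Hif1an had 172, 140 and 166 CPM in PTHrP against 165, 157 and 160 CPM in DsRed, with a log2 fold change of -0.01 (SE 0.08), and PTHrP replicate 2 was below the other 5 libraries. Vhl had 75.1, 73.7 and 73.9 CPM in PTHrP against 68.2, 71.6 and 62.8 CPM in DsRed. In CPM the PTHrP libraries of Vhl were nearly equal, with a coefficient of variation of 0.963%. All lay above the DsRed libraries, by 1.10-fold on average (log2 fold change 0.14, SE 0.07). On the TPM scale Vhl had 79.8, 70.15 and 77.4 in PTHrP against 72.6, 75.5 and 64.4 in DsRed, and the groups overlapped.

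The 3 HIF target genes covered different branches of the response. Vegfa, the angiogenic growth factor, had 282, 237 and 274 CPM in PTHrP against 266, 271 and 255 CPM in DsRed, and its log2 fold change was 0.00 (SE 0.07). Bnip3, a mitophagy receptor of the outer mitochondrial membrane, had 69.1, 57.2 and 81.7 CPM in PTHrP against 66.2, 76.7 and 55.0 CPM in DsRed. The spread within groups, 17.7% and 16.5% as coefficients of variation, was far larger than the log2 fold change of 0.07 (SE 0.15), which ranged from -0.06 (PTHrP replicate 3 left out) to 0.20 (PTHrP replicate 2 left out). Pdk1, the kinase that inhibits pyruvate dehydrogenase, had 171, 170 and 185 CPM in PTHrP against 157, 176 and 150 CPM in DsRed, with a log2 fold change of 0.12 (SE 0.07). DsRed replicate 2 lay among the PTHrP libraries for Pdk1.

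Levels ranked the 10 genes in a partly stable order. Per merged exon length, Egln2 was highest, followed by Vegfa, and Egln3 was lowest, preceded by Hif1a, in all 6 libraries, and these positions held with the longest transcript as the length. Vegfa had 189 ± 27.8 TPM in PTHrP and 194 ± 9.37 TPM in DsRed. Egln1 came next after Vegfa in PTHrP replicates 1 and 2, next after Vegfa and Bnip3 in PTHrP replicate 3 and DsRed replicate 1, and below Bnip3, Hif1an, Vhl and Pdk1 in DsRed replicates 2 and 3. Bnip3 (94.1 ± 20.8 TPM in PTHrP and 91.6 ± 16.2 TPM in DsRed), Hif1an (74.1 ± 12.2 and 76.4 ± 3.04), Vhl (75.8 ± 5.01 and 70.8 ± 5.75) and Pdk1 (69.0 ± 6.25 and 65.1 ± 6.20) followed, with Bnip3 the highest of these 4 in all 6 libraries, while Hif1an, Vhl and Pdk1 changed places between libraries and lay within their spread of each other in PTHrP. These middle places are by merged exon length. With the longest transcript as the length, Egln1 stood lower in PTHrP replicate 3 and in all DsRed libraries. Pdk1 then exceeded Bnip3 in PTHrP replicate 2 (73.6 against 73.2 TPM), and Arnt exceeded Bnip3 in DsRed replicate 3 (75.3 against 74.8 TPM). On the CPM scale, within groups, PTHrP replicate 2 was the lowest PTHrP library for 9 of the 10 genes and the highest for Egln1. DsRed replicate 3 was the lowest DsRed library for 9 of the 10, all but Hif1an. Over 7951 genes of at least 4 log2 CPM these libraries were the lowest of their group in 47.8% and 52.2% of genes.

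In positions of GRCm38, Egln2 lies on chromosome 7 at 27158658 to 27166802, Egln3 on chromosome 12 at 54178981 to 54203860, Hif1a on chromosome 12 at 73901375 to 73947530, and Arnt on chromosome 3 at 95434388 to 95497240. Hif1an is on chromosome 19 at 44562850 to 44576274, Vhl on chromosome 6 at 113623959 to 113631633, Vegfa on chromosome 17 at 46016993 to 46032369, Bnip3 on chromosome 7 at 138890836 to 138909519, and Pdk1 on chromosome 2 at 71873224 to 71903858. All 10 are protein-coding. Exons of Egln2 overlap those of Cyp2t4 on the opposite strand over 11 bases, those of Hif1a overlap Gm15283 on the opposite strand over 330 and Gm49321 on the same strand over 148, and those of Bnip3 overlap Gm45507 on the opposite strand over 504. These partners had few counts, 53 to 94 in PTHrP and 50 to 76 in DsRed for Cyp2t4, 2 to 8 and 2 to 19 for Gm15283, and 0 for both others, but reads in the shared bases cannot be assigned without strand. A processed pseudogene, Vhl-ps1, had 0 to 8 counts in PTHrP and 0 to 2 in DsRed.

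The other genes of the HIF machinery showed no call. Of 18 listed, 16 were tested, 8 with positive and 8 with negative log2 fold changes, and their median was 0.01. No gene passed (edgeR), none had an unadjusted p under 0.05, against 8.90% of all genes tested, and neither DESeq2 nor limma-voom called any. The smallest p belonged to Eloc, the elongin C subunit of the VHL ubiquitin ligase, with 79.6 ± 2.47 CPM in PTHrP against 86.9 ± 4.49 CPM in DsRed (log2 fold change -0.13, adjusted p = 0.602). Ing4, a histone-binding tumour suppressor, had -0.61 with means of 0.670 CPM in PTHrP against 1.03 CPM in DsRed (adjusted p = 0.697), Kdm6a, an oxygen-sensitive histone demethylase, -0.10 (adjusted p = 0.717), and Siah1a, a ubiquitin ligase that targets prolyl hydroxylases, 0.09 (adjusted p = 0.751). The remaining ligase parts Cul2 (-0.01), Elob (0.02) and Rbx1 (0.02) and the HIF coactivators Ep300 (-0.08) and Crebbp (-0.16) did not pass either.

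HIF target genes outside the list of glycolytic targets were balanced in direction. Of 43 listed, 37 were tested, 19 positive and 18 negative, with a median of 0.02 against -0.007 over all genes. None passed with edgeR, DESeq2 or limma-voom. An unadjusted p under 0.05 (edgeR) was found for 3, 1 higher and 2 lower, against 8.9% of all genes tested. Vldlr, a lipoprotein receptor, had 143, 111 and 135 CPM in PTHrP against 106, 107 and 117 CPM in DsRed (log2 fold change 0.24, adjusted p = 0.455). It was called without PTHrP replicate 2, whose level lay among those of DsRed, in a fit that called 213 of 22316 genes. Pfkfb3, a regulatory enzyme of glycolysis, had -0.31 (adjusted p = 0.508), Kdm3a, a histone demethylase, -0.13 (adjusted p = 0.551), and Tfrc, the transferrin receptor, -0.10 (adjusted p = 0.596). Levels differed widely within the list. Ndrg1, a stress-responsive gene, averaged 314 CPM in PTHrP against 302 CPM in DsRed, and P4ha1, a collagen prolyl hydroxylase subunit, 83.3 against 77.0 CPM. Ankrd37 averaged 5.22 against 4.82 CPM, Adm, the vasodilator adrenomedullin, 1.45 against 1.16 CPM, and Car9, a carbonic anhydrase, 0.106 against 0.0265 CPM. The mitophagy receptor Bnip3l had 0.06, the glucose transporter Slc2a1 0.16, and Ddit4, an inhibitor of mTORC1, -0.21.

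The glycolytic HIF targets listed lay mostly on the positive side. Of 17 listed, 16 were tested and 15 had positive log2 fold changes, with a median of 0.15. The direction depends on what was listed. The glycolytic regulators Pfkfb3 (-0.31) and Pfkfb4 (-0.16) were placed with the other HIF targets above. So were the glucose transporters Slc2a1 (0.16) and Slc2a3 (-0.18). None passed with edgeR, DESeq2 or limma-voom, and 4 had an unadjusted p under 0.05, all higher. Of all 21141 genes tested, 1881, or 8.9%, had such a p (edgeR), 1040 of them higher. A positive log2 fold change was found in 10297 of the 21141. Pgk1, the phosphoglycerate kinase, had 453, 519 and 483 CPM in PTHrP against 417, 451 and 354 CPM in DsRed (log2 fold change 0.25, adjusted p = 0.414). Tpi1, Gapdh and Pgam1 had 0.19, 0.25 and 0.15 (adjusted p from 0.492 to 0.561). The summed level of the 17 genes was 9984, 9841 and 10120 CPM in PTHrP and 9183, 10070 and 7891 CPM in DsRed, so DsRed replicate 2 lay within the PTHrP libraries and DsRed replicate 3 far below. Without DsRed replicate 3 the median was 0.09, and without DsRed replicate 2 it was 0.24.

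The families around Pdk1, Vegfa and Bnip3 gave no call either, with edgeR, DESeq2 or limma-voom. Around Pdk1, 13 of 13 genes of the pyruvate dehydrogenase complex, its kinases, phosphatases and pyruvate carriers were tested, with a median of -0.05. Among them 1 had an unadjusted p under 0.05 (edgeR), against 8.9% of all genes tested. That gene was Pdp1, the phosphatase that reactivates the complex, at 56.6, 52.0 and 57.2 CPM in PTHrP against 64.8, 66.7 and 59.6 CPM in DsRed (log2 fold change -0.21, adjusted p = 0.414). Mpc1 and Mpc2, the 2 subunits of the pyruvate carrier, had 0.16 and -0.12, and Pdpr, a regulator of the phosphatase, 0.18. Pdk1 was the leading kinase of the family, since Pdk3 stood at 30.7 TPM in PTHrP and 34.3 TPM in DsRed, Pdk2 at 10.2 and 10.0, and Pdk4 at 0.0636 and 0.132.

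Of 9 VEGF ligands and receptors 8 were tested and 1 had an unadjusted p under 0.05 (edgeR), against 8.9% of all genes tested. It was Vegfb, a growth factor linked to fatty acid uptake, at 112, 117 and 114 CPM in PTHrP against 102, 103 and 102 CPM in DsRed, groups that did not overlap (log2 fold change 0.16, adjusted p = 0.414). Per length Vegfb, with 218 ± 8.23 TPM in PTHrP and 201 ± 4.23 TPM in DsRed, was near the level of Vegfa. Only 4 of the 8 averaged 1 CPM or more, and Vegfd (-0.64), Kdr (-0.45) and Nrp2 (0.19) had the next smallest p. The median of -0.18 was 0.16 when genes under 1 CPM were left out and 0.04 without PTHrP replicate 2.

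For mitophagy receptors and partners of Bnip3, all 13 genes were tested, 11 positive and 2 negative, with a median of 0.07. Of all 21141 genes tested 10297 were positive. An unadjusted p under 0.05 (edgeR) was found for 2 of the 13, both higher, against 8.9% of all genes tested. Gabarapl1, an autophagosome protein that mitophagy receptors bind, had 229, 202 and 224.5 CPM in PTHrP against 195, 201 and 186 CPM in DsRed (log2 fold change 0.17, adjusted p = 0.463). Fkbp8, a mitophagy receptor, had 0.14 (adjusted p = 0.487), Pink1, a mitochondrial kinase of mitophagy, 0.11 (adjusted p = 0.679), and Phb2, an inner membrane prohibitin, 0.09 (adjusted p = 0.688).

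**Figure D5:**
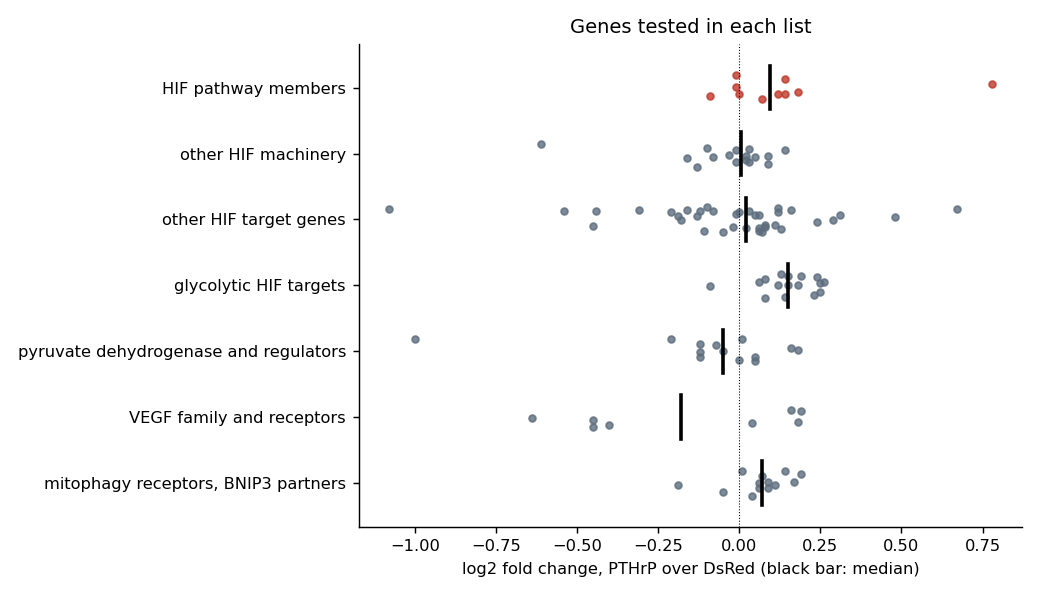
Log2 fold change of PTHrP over DsRed (x axis) for the genes tested in each list (rows), 1 point a gene, with a black bar at the median. Egln1 at 0.78 stands apart from the other HIF pathway genes in the top row, the medians of the other HIF machinery and other HIF targets are 0.01 and 0.02, and that of the glycolytic targets is 0.15.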

How the data were processed

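The deposited table holds raw gene counts of 6 libraries. Per the submitters' processing notes the authors used bcl2fastq, STAR, and featureCounts 2.0.3 of Subread on GRCm38; no source used here gives the annotation, strand setting or multi-mapping rule, which leaves overlapping genes and near-identical copies uncertain. Groups come from the library titles. Of 55774 entries, 287 repeats of an identifier, with identical counts, were dropped.

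Genes were filtered with filterByExpr (21141 kept), scaled with TMM and tested with the edgeR 4.0.16 quasi-likelihood F-test (robust, group term only, two-sided, R 4.3.3), with Benjamini-Hochberg adjustment over all genes tested and a threshold of 0.05. DESeq2 1.42.0 and limma 3.58.1 (voom) were alternatives. The SE is the coefficient over the square root of F. TPM uses merged exon lengths from GENCODE M21 (GRCm38), with no TMM scaling. Log2 CPM for correlations carries a prior count of 2. The scripts were tested on simulated counts.

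The members and lists were chosen with earlier results of these data known. Named genes are the members, Pthlh, the 4 genes of smallest p in each list, the 4 genes most like Egln1, overlapping genes and any called list gene; neighbours of Egln1, genes of like level, the GC comparisons and other list genes were added after the data were seen. Promoter sequences are RefSeq's (GRCm38.p6), found for 10 of 10 members.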

Additional observations from a re-analysis of the deposited data

How the results depend on the processing

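With all 6 libraries 9 genes passed (4 higher, 5 lower). The count was 14 with library sizes alone, 18 with limma-voom and 14 with a gene length correction. With no filter on low counts it was 220 of 44413 genes, and with DESeq2, fitted to as many genes, 104 (67 higher, 37 lower). When 1 library was left out the filter was rerun. The count then ranged from 2 of 22805 genes (without DsRed replicate 2) to 213 of 22316 (without PTHrP replicate 2). The cause of this range was not tested. Of the 10 HIF pathway genes, 1 (Egln1) was called with no filter, in a fit that called 220 of 44413 genes. None was called under the other 15 alternatives. Egln1 was in view when the set was chosen, so this call is a description. The log2 fold change of Egln1 was 0.74 to 0.79 under other settings. Those of Egln2 (0.08 to 0.19), Egln3 (0.12 to 0.26), Vhl (0.09 to 0.18), Pdk1 (0.07 to 0.19) and Arnt (-0.13 to -0.02) kept their sign in all 16 alternatives, while Hif1a, Hif1an, Vegfa and Bnip3 changed sign in some, all within 0.08 of 0 except Bnip3 at up to 0.20. Among the glycolytic HIF targets 2 genes (Gapdh and Pgk1) were called with no filter. Leaving out 1 library gave 0 to 1 call among the other HIF targets (Vldlr) and 0 to 1 among the mitophagy genes (Gabarapl1), both without PTHrP replicate 2. The GC correction used the GC of the whole longest transcript, not of its start, and was added after the data were seen.

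Libraries of the same replicate number did not deviate together (r = 0.02, -0.11 and 0.02 over genes tested), so the numbers are not read as pairs. With the replicate number as a block 7 genes passed, no HIF pathway gene among them, and Egln1 had a log2 fold change of 0.79. With 264 to 330 counts per library, Egln3 is the member measured with the lowest precision in counting.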
